A study of Mus musculus with 16 samples.

Results

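The genes described here are 9 genes that mark the epicardium, the mesothelial sheet on the outside of the heart: Wt1, Tbx18, Msln, Upk3b, Upk1b, Aldh1a2, Krt8, Krt18 and Krt19. They were taken by name from the platform annotation, all 9 were measured, each by 1 probe set, and they stand among 19505 genes tested. Hearts came from male C57BL/6 wild-type mice, 10 weeks old. The groups were sham surgery, and ligation for 30 min of the coronary artery that feeds the front of the left ventricle (the left anterior descending), with reperfusion for 6, 24 or 72 h. Each group had 4 hearts and 1 array a heart, so 16 arrays in all, and the tissue is labelled only as heart, with no dissection of the outer layer. No label gives a time after sham surgery, and 1 set of sham hearts stands against all 3 times, so the 3 comparisons with sham share their controls.

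The epicardium begins in the embryo as an outgrowth of mesothelium that spreads over the myocardium. Its cells make retinoic acid and growth factors for the muscle beneath, and some of them undergo epithelial to mesenchymal transition and give rise to fibroblasts and mural cells. In the adult the layer is thin and quiet, and injury to the heart is known to reactivate embryonic epicardial genes in it. The uroplakins and keratins belong to its epithelial side, Wt1 and Tbx18 are transcription factors of its embryonic state, and Aldh1a2 makes retinoic acid.

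Values are log2 signals, and a change is the mean log2 signal of one group minus that of another, with its standard error (SE) from limma's fit over all 16 arrays. A gene is called where limma's p, adjusted by Benjamini-Hochberg over 19505 genes, is under 0.05. A signal of 6.76, which 3 in 4 of the negative controls do not exceed, serves as the background level. Of the 9 genes, 7 had every group mean below it; Aldh1a2 and Tbx18 passed it in at least 1 group. An array of heart tissue reads a thin surface layer together with all other cells. Fewer cells of a type and less RNA per cell cannot be told apart in these data. Where both groups of a comparison lie below the background level, the log2 difference is given without a fold.

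The set did not move as one. Aldh1a2 rose at every time of reperfusion. Upk3b fell at 6 and 24 h and stood near its sham level at 72 h. Upk1b and Tbx18 rose at 72 h, with no call at 6 or 24 h, and each was higher at 72 h than at either earlier time by limma's test of that difference. Krt18 rose at 24 and 72 h by under 1 log2 unit, and Wt1, Msln, Krt8 and Krt19 were not called in any comparison.

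**Figure D1:**
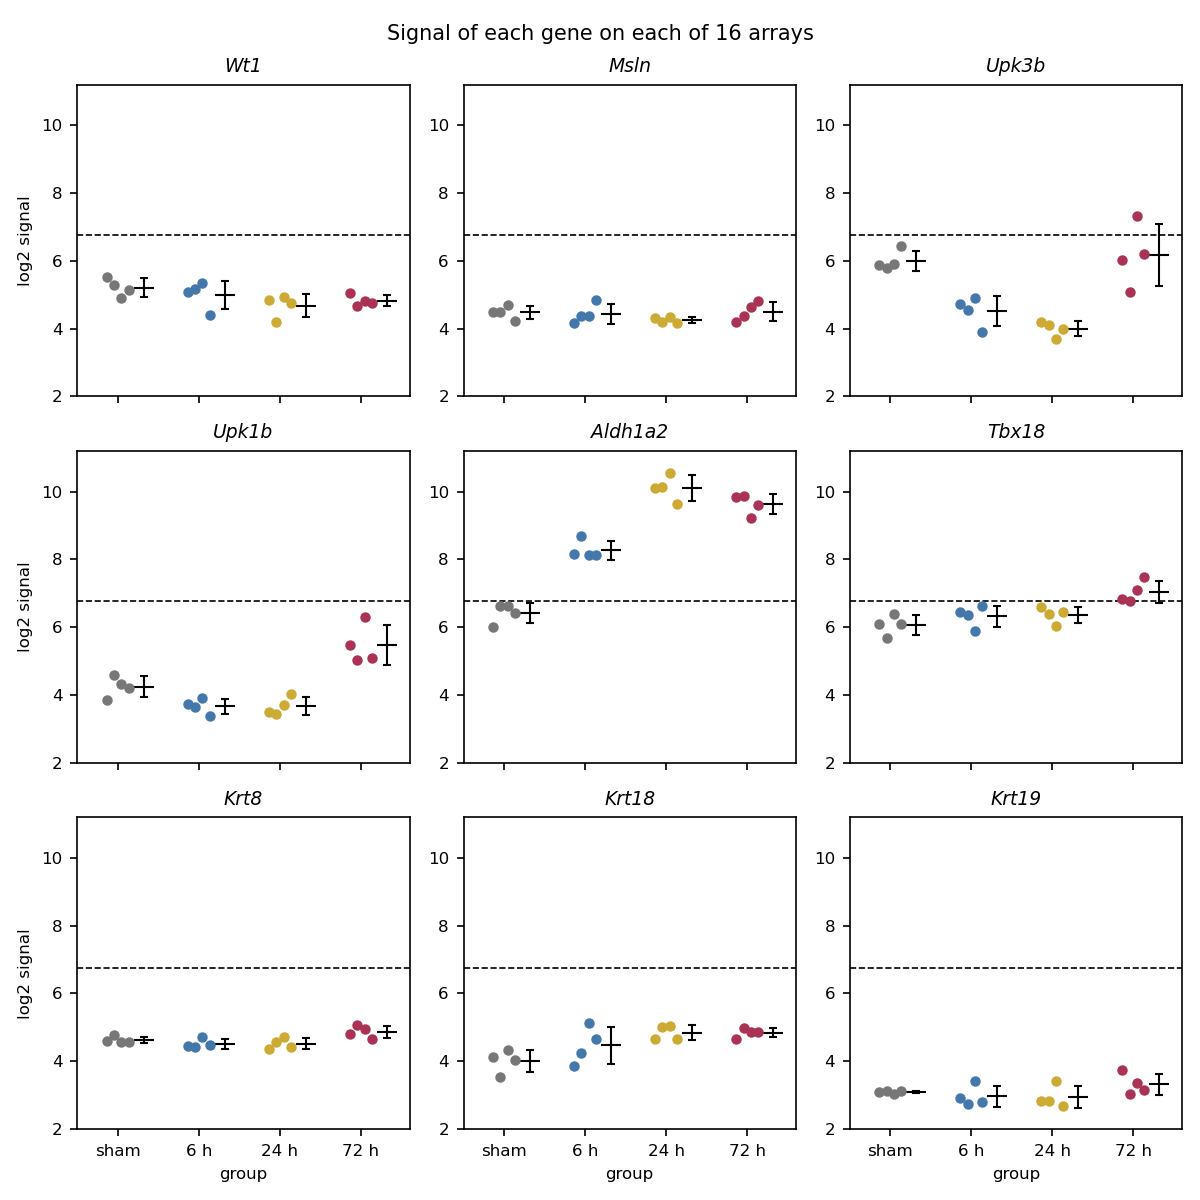
Log2 signal (vertical axes) of the 9 genes on each array, with groups in order of time on the horizontal axes. Points are single hearts, black marks are the group mean and SD (n = 4), and the dashed line is the background level of 6.76; Aldh1a2 lies above the line in all 12 reperfused hearts and Upk3b in 1 heart at 72 h.

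Against sham, 1 of the 9 genes was higher and 1 lower at 6 h, where 7.92% of all genes tested were higher and 12.3% lower. At 24 h, 2 were higher and 1 lower, against 13.8% and 12.3% of all genes. At 72 h, 4 were higher and 0 lower, against 11.5% and 10.3% of all genes, and at an unadjusted p under 0.05 the count was also 4. The median change of the 9 genes was -0.11 at 6 h, -0.15 at 24 h and 0.23 at 72 h, and that of all genes -0.04, -0.07 and -0.09. The hybridization spike-ins are control RNAs added at one amount, read here as the mean of only 4 probe sets. They read 9.86 to 10.17 on the 72 h arrays, against 10.45 to 10.60 on the sham arrays. With arrays centred on them 7 of the 9 genes were higher at 72 h. On that scale 7270 of all 19505 genes were higher at 72 h too, and the median change of all genes was 0.40. The F test over the 4 groups called 5 of the 9 genes, and 44.5% of all genes.

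**Figure D2:**
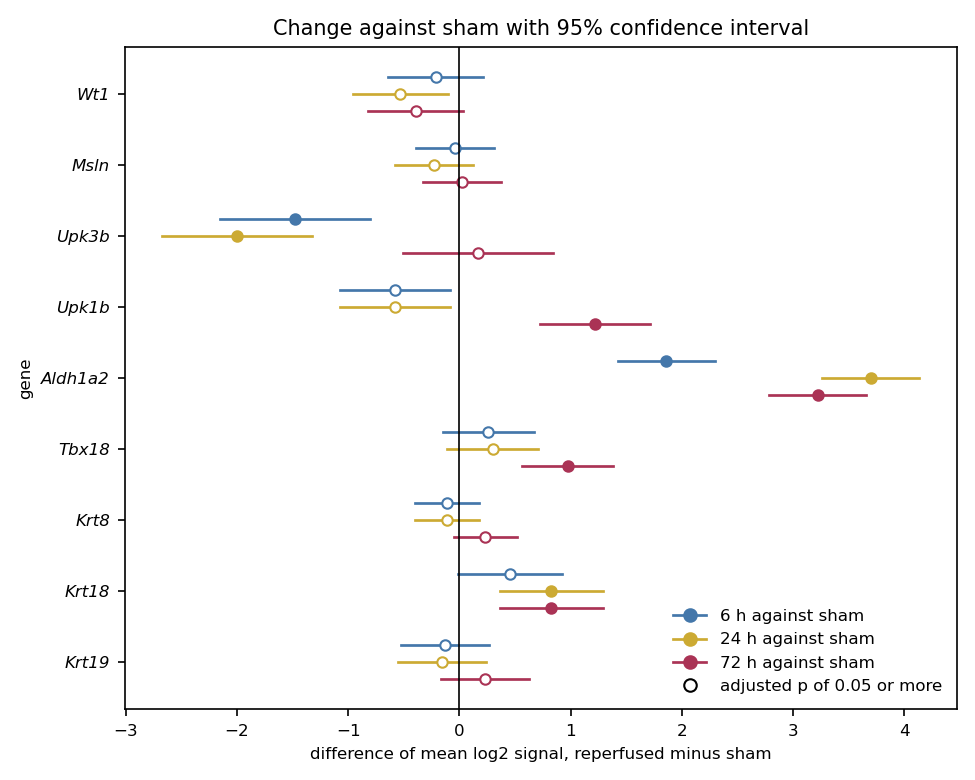
Difference of mean log2 signal against sham (horizontal axis) for each gene, with 95% confidence intervals from limma. Filled points passed the adjusted threshold; Aldh1a2 at 24 h lies farthest to the right at 3.70 and Upk3b at 24 h farthest to the left at -2.00.

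Aldh1a2 encodes retinaldehyde dehydrogenase 2, the main enzyme that makes retinoic acid in the embryonic epicardium. Its log2 signals in sham hearts were 5.99, 6.62, 6.61 and 6.41, all below the background level. They were 8.15, 8.69, 8.12 and 8.11 at 6 h, 10.11, 10.13, 10.56 and 9.63 at 24 h, and 9.85, 9.86, 9.21 and 9.60 at 72 h. No reperfused heart overlapped the sham hearts at any time. The change was 1.86 ± 0.21 (SE) at 6 h, 3.70 ± 0.21 at 24 h and 3.22 ± 0.21 at 72 h, with limma adjusted p of 2.258e-06, 1.443e-09 and 2.686e-09. Because sham lies below the background level, each fold is a lower bound set against that level, with the group mean taken without its error. These bounds are at least 2.84-fold at 6 h, 10.2-fold at 24 h and 7.30-fold at 72 h. The 24 h hearts were higher than the 6 h hearts by 1.84 ± 0.21 (limma adjusted p 2.644e-06), and the 72 h hearts were higher than the 6 h hearts by 1.36 ± 0.21 (4.743e-05). Between 72 h and 24 h the change of -0.48 ± 0.21 did not pass (limma adjusted p 0.165, 95% interval -0.91 to -0.04); without the 24 h replicate 17, the lowest of its group, it was -0.64 with an adjusted p of 0.0479.

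Among all other genes, those whose sham-centred log2 values ran closest to Aldh1a2 over the 16 arrays were Atp8b4, with a root mean square difference of 0.48, and Adam12, with 0.51. Atp8b4 changed by 2.08 at 6 h, 3.80 at 24 h and 3.07 at 72 h against sham. Adam12, which encodes a membrane metalloprotease, changed by 2.11, 4.13 and 3.73. The likeness describes these 16 arrays and was not tested.

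Retinoic acid is made by oxidation of retinol to retinaldehyde and of retinaldehyde to the acid, and it acts through the receptors RAR and RXR. The list of this pathway held 17 measured genes besides Aldh1a2. At 6 h 1 was higher and 4 lower, at 24 h 3 and 4, and at 72 h 2 and 1. Of all genes, 7.92% were higher and 12.3% lower at 6 h. At 24 h these shares were 13.8% and 12.3%, and at 72 h 11.5% and 10.3%. On hybridization spike-ins the list counts were 1 and 7 at 6 h, 3 and 2 at 24 h, and 6 and 1 at 72 h. The poly-A spike-ins, likewise the mean of only 4 probe sets, gave 1 and 10 at 6 h. The list medians of -0.19, -0.15 and -0.07 moved with the scale of the arrays, with the sign turned at 24 and 72 h when arrays were centred on hybridization spike-ins (0.16 and 0.43) and at 72 h when centred on poly-A spike-ins (0.12).

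Upstream of Aldh1a2 stands Rdh10, the enzyme that turns retinol into retinaldehyde. It averaged 7.39 at 6 h and 7.46 at 24 h, against 5.43 in sham hearts, which is below the background level. These changes of 1.96 ± 0.26 and 2.03 ± 0.26 passed (limma adjusted p 1.739e-05 and 1.099e-05). At 72 h the mean was 5.86, also below the background level, and the change of 0.43 was not called (0.266). Dhrs3, which returns retinaldehyde to retinol, averaged 12.05 at 6 h, against 13.09 in sham hearts, a change of -1.04 ± 0.19 (limma adjusted p 0.00042). At 6 h Rdh10 was above its sham level and Dhrs3 below its own. Dhrs3 was also called at 24 h, with a change of -0.54, but not on hybridization spike-ins (limma adjusted p 0.437). At 72 h it averaged 13.40.

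The other retinaldehyde dehydrogenases, Aldh1a1 and Aldh1a3, differed from each other in direction at 24 h. Aldh1a1 averaged 8.13 at 24 h and 10.25 at 72 h, against 9.56 in sham hearts; it fell by 1.43 at 24 h (limma adjusted p 9.968e-05) and rose by 0.69 at 72 h (0.0358; 0.0528 after quantile normalization and 0.0621 with median centring), and the 72 h hearts exceeded the 24 h hearts by 2.13 ± 0.23 (4.404e-06). Aldh1a3 stayed below the background level in every group mean, with means of 6.41 at 24 h and 6.06 at 72 h, against 5.22 in sham hearts. Its changes of 1.18 and 0.84 passed (limma adjusted p 0.000866 and 0.0155).

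Among the receptors, Rarb, itself a classic target of retinoic acid, averaged 9.12 at 6 h, against 11.21 in sham hearts, a change of -2.09 ± 0.21 (limma adjusted p 6.079e-07). At 24 and 72 h its means were 11.19 and 10.85, with no call against sham. Rxrg was lower at all 3 times, with means of 11.97, 11.73 and 11.90, against 13.11 in sham hearts. Rxra was lower at 6 and 24 h by 0.82 and 0.76, the second not called on hybridization spike-ins (limma adjusted p 0.142), and Rara was higher at 24 h by 0.68 ± 0.20 (limma adjusted p 0.0136). Of the Cyp26 enzymes, which break retinoic acid down, none was called against sham. Cyp26a1, Cyp26b1 and Cyp26c1 had every group mean below the background level, so a change of these transcripts may not show. In 1 heart at 72 h Cyp26b1 read 7.56.

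**Figure D3:**
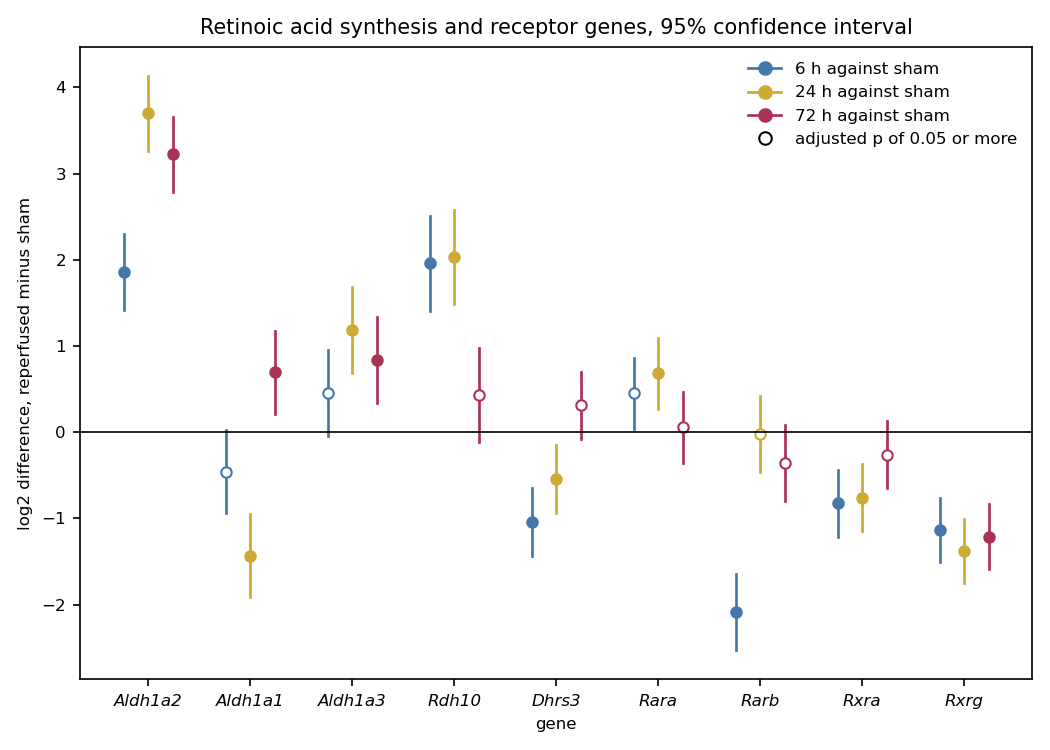
Log2 difference against sham (vertical axis, 95% confidence intervals from limma) for Aldh1a2 and 8 genes of retinoic acid synthesis and reception. Filled points passed the adjusted threshold; Aldh1a2 is above 0 at all 3 times, Rdh10 at 6 and 24 h, and Rxrg is below 0 at all 3 times.

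Upk3b and Upk1b encode uroplakins, membrane proteins first known from the bladder lining, and Upk3b is also widely used as a mesothelial marker. Upk3b had log2 signals of 4.73, 4.55, 4.89 and 3.91 at 6 h and of 4.20, 4.11, 3.69 and 3.99 at 24 h, against 5.87, 5.78, 5.91 and 6.42 in sham hearts. All 8 early reperfused hearts lay below all 4 sham hearts. The change was -1.48 ± 0.32 at 6 h and -2.00 ± 0.32 at 24 h (limma adjusted p 0.00224 and 0.000108). Both sides of these comparisons lie below the background level.

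At 72 h the 4 hearts had Upk3b signals of 6.03, 5.09, 7.33 and 6.21, a wider spread (SD 0.92) than the 0.29 of the sham hearts. The mean of 6.17 stood against 6.00 in sham hearts, a change of 0.17 with a 95% interval of -0.51 to 0.84, so a rise or fall within that range was not resolved (limma adjusted p 0.761). Against earlier times the 72 h hearts were higher by 2.17 ± 0.32 over 24 h and by 1.65 ± 0.32 over 6 h (limma adjusted p 0.00013 and 0.000574), with no overlap of hearts in either. Replicate 22 was the one heart of the series with Upk3b above the background level; without it the change over 24 h was 1.78, still called, and the change against sham was -0.22, not called.

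Upk1b had log2 signals of 5.47, 5.02, 6.30 and 5.08 at 72 h, against 3.86, 4.60, 4.32 and 4.21 in sham hearts. The 72 h hearts did not overlap sham, and replicate 22 was again the highest. The change was 1.22 ± 0.24 (limma adjusted p 0.000814), and it was 0.95 and still called without replicate 22. At 6 and 24 h the mean was 3.67, against 4.25 in sham hearts, and each change of -0.58 did not pass in the fit over all 16 arrays (limma adjusted p 0.0968 and 0.079). With only the 2 groups compared in the fit both passed (limma adjusted p 0.0424 and 0.0428), as did the change at 6 h on hybridization (0.0145) and poly-A spike-ins (0.0118) and that at 24 h with median centring (0.0447). It also passed at 6 h without the 72 h replicate 22 (0.0312) and at 24 h without it (0.025), without sham replicate 2 (0.0479) or without the 24 h replicate 17 (0.0411). The 72 h hearts were above both the 6 h and the 24 h hearts by 1.80 ± 0.24 (limma adjusted p 8.255e-06 and 3.559e-05).

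The genes closest to Upk3b over the 16 arrays were Lsmem1 and Pcsk6, both at a root mean square difference of 0.52. Pcsk6, a proprotein convertase, changed by -1.37 at 6 h, -2.10 at 24 h and 0.00 at 72 h against sham. Closest to Upk1b were Nid2, a basement membrane protein, and Entpd2, an enzyme that hydrolyses extracellular nucleotides, both at 0.39. Nid2 changed by -0.39, -0.25 and 0.92, and Entpd2 by -0.70, -0.48 and 1.04.

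Of the other uroplakin genes, 4 were measured and all were below the background level in every group. Upk1a was lower at 24 h, with a mean of 4.12, against 4.58 in sham hearts (change -0.46 ± 0.14, limma adjusted p 0.0163), and no other call against sham was made in this list. That call was lost after quantile normalization (0.051) and on hybridization spike-ins (0.578). Its median change was 0.09 at 6 h, -0.13 at 24 h and -0.12 at 72 h; centring on either spike-in set turned the sign at 6 h (-0.13 and -0.25) and at 72 h (0.38 and 0.07), and hybridization spike-ins turned it at 24 h (0.18).

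The promoters of Upk3b and Aldh1a2 are shown because these 2 genes had the widest changes of the set, in opposite directions at 6 and 24 h. Promoter sequences were listed for 5 of the 9 genes, all in RefSeq's table for GRCm38.p6. Each line gives the 250 bases before the annotated start of the gene, and capitals mark a match to a motif on either strand. Upk3b lies at chr5:136038246-136038495 on the plus strand and Aldh1a2 at chr9:71215539-71215788 on the plus strand.
Upk3b: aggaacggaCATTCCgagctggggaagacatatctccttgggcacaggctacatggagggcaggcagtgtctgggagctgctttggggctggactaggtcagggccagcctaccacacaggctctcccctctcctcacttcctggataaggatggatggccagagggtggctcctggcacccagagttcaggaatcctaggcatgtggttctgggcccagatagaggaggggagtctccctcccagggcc
Aldh1a2: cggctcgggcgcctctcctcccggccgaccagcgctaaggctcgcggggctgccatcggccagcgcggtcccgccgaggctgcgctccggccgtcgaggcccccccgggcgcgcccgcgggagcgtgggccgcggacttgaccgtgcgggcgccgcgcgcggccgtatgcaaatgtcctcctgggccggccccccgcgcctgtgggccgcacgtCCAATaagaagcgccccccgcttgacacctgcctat

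The motifs searched were the GC box (GGGCGG), the TEAD motif (GGAATG), the AP-1 motif (TGANTCA), the TATA box (TATAAA) and the CCAAT box (CCAAT), the last added after the sequences had been read, and no match overlapped another. Upk3b had 1 TEAD match, on the minus strand at position -241 from the start of the gene, and 12.6% of 32851 promoters of this length hold one. Aldh1a2 had 1 CCAAT match at -36 on the plus strand, found in 33.8% of promoters, and Tbx18 had 1 at -87 on the minus strand. No TEAD match stood in the Aldh1a2 window and no GC box, AP-1 or TATA match stood in either printed window; of all promoters 32.7%, 6.75% and 12.4% hold these. The Aldh1a2 window is 77.6% G and C and the Upk3b window 60.8%, where the median promoter has 52.4%.

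Wt1, the zinc finger transcription factor of the embryonic epicardium, had log2 signals of 4.83, 4.20, 4.93 and 4.75 at 24 h, against 5.54, 5.29, 4.89 and 5.13 in sham hearts. The groups overlapped by 1 pair of hearts. The change of -0.53 ± 0.20 missed the threshold (limma adjusted p 0.0616, 95% interval -0.96 to -0.11), and without sham replicate 4 it was -0.64 with an adjusted p of 0.0402; without the 6 h replicate 11 the adjusted p was 0.0309. At 6 and 72 h the means were 4.998 and 4.82, against 5.21 in sham hearts, with changes of -0.21 and -0.39 and no call (limma adjusted p 0.559 and 0.188). All 16 Wt1 signals were below the background level.

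Tbx18, a T-box transcription factor of the epicardium and of some mural cells, had log2 signals of 6.83, 6.78, 7.09 and 7.47 at 72 h, against 6.10, 5.69, 6.38 and 6.08 in sham hearts. All 4 hearts at 72 h lay above the background level and all 4 sham hearts below it. The change was 0.97 ± 0.19 (limma adjusted p 0.0011). Set against the background level, the 72 h mean, taken without its error, gives a rise of at least 1.21-fold. That mean equalled or exceeded 80.8% of the negative controls. At 6 and 24 h the means were 6.32 and 6.36, and the changes of 0.26 and 0.30 were not called (limma adjusted p 0.428 and 0.293).

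The 72 h hearts were above the 6 h hearts in Tbx18 by 0.72 ± 0.19 (limma adjusted p 0.00842) and above the 24 h hearts by 0.68 ± 0.19 (0.0254). The second of these calls was lost when the 24 h replicate 15 or 16 or the 72 h replicate 22 or 23 was left out, with limma adjusted p of 0.0555, 0.0955, 0.0598 and 0.102. Among 6 other T-box genes none was higher at any time, and 1, 3 and 1 were lower at 6, 24 and 72 h. Of all genes, 7.92%, 13.8% and 11.5% were higher and 12.3%, 12.3% and 10.3% lower at these times. The list medians were -0.27, -0.41 and -0.14. The last turned to 0.36 and 0.05 with arrays centred on hybridization or poly-A spike-ins. Tbx5, a factor of cardiac muscle, averaged 7.50 at 24 h and 8.01 at 72 h, against 9.39 in sham hearts, and fell by 1.89 and 1.38 (limma adjusted p 1.901e-05 and 0.00056). Tbx20 fell by 0.70 at 6 h (limma adjusted p 0.00833), and Tbx3 and Tbx1 fell by 0.59 and 0.58 at 24 h (0.0211 and 0.0483). Neither of these calls at 24 h held on hybridization spike-ins (0.353 and 0.431), and that of Tbx1 was lost after quantile normalization (0.0948).

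Msln encodes mesothelin, a surface protein of mesothelium. Its group means were 4.44 at 6 h, 4.25 at 24 h and 4.50 at 72 h, against 4.48 in sham hearts, and all 16 signals, from 4.15 to 4.85, lay below the background level. The changes against sham of -0.04, -0.23 and 0.02 were not called, and their 95% intervals reached at most 0.58 below and 0.37 above 0. A probe set near background may not show a change of the transcript.

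The keratins 8, 18 and 19 form the filaments of simple epithelia, mesothelium included. Krt18 had log2 signals of 4.66, 5.02, 5.04 and 4.65 at 24 h and of 4.65, 4.97, 4.87 and 4.87 at 72 h, against 4.13, 3.55, 4.34 and 4.03 in sham hearts. Neither time overlapped sham, and the change was 0.83 ± 0.22 at both (limma adjusted p 0.00859 and 0.011). At 6 h the hearts spread from 3.85 to 5.12 and overlapped sham, with a change of 0.45 (limma adjusted p 0.181) that passed when the 6 h replicate 7 was left out (0.66, adjusted p 0.0361).

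Krt8, the usual partner of Krt18, averaged 4.86 at 72 h, against 4.63 in sham hearts, and its change of 0.23 was not called (limma adjusted p 0.246, 95% interval -0.05 to 0.52). Krt19 averaged 3.32 at 72 h, against 3.09 in sham hearts, a change of 0.23 (0.434). All 3 keratins were below the background level on every array. Among 12 further keratin and epithelial junction genes, none reached the background level in any group mean. At 6, 24 and 72 h, 0, 1 and 1 were higher and 1, 1 and 1 lower. Of all genes, 7.92%, 13.8% and 11.5% were higher and 12.3%, 12.3% and 10.3% lower at these times. The list medians were -0.02, -0.07 and -0.13. They turned to 0.24 at 24 h and 0.37 at 72 h on hybridization spike-ins, and to 0.06 at 72 h on poly-A spike-ins. The sign also turned at 24 h after quantile normalization (0.02) and at 6 h on the array median (0.01). Grhl2, an epithelial transcription factor, was lower at all 3 times by 1.03, 0.78 and 0.69, but on hybridization spike-ins it was called at 6 h only (limma adjusted p 0.115 at 24 h and 0.469 at 72 h), and on poly-A spike-ins the 72 h call was lost (0.116). Krt80 was higher at 24 h by 1.75, and Cdh3, which encodes P-cadherin, was higher at 72 h by 0.96, in each case with both group means below the background level.

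Between the times of reperfusion, 1 of the 9 genes was higher and 0 lower at 24 h than at 6 h, where 17.3% of all genes were higher and 10.9% lower. From 24 to 72 h, 3 were higher and 0 lower, namely Upk3b, Upk1b and Tbx18, against 6.85% and 6.07% of all genes. At 72 h against 6 h, 4 were higher and 0 lower, against 17.5% and 13.1%. The median change of the 9 genes was 0.00, 0.35 and 0.37 in these 3 comparisons, and that of all genes -0.04, -0.02 and -0.06.

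A list of other mesothelial and epicardial genes held 22 measured genes, of which 9 had a mean above the background level in sham hearts and 11 at 72 h. It gave 2 higher and 3 lower at 6 h, 3 and 3 at 24 h, and 7 and 2 at 72 h. Of all genes, 7.92% were higher and 12.3% lower at 6 h. At 24 h these shares were 13.8% and 12.3%, and at 72 h 11.5% and 10.3%. The counts at 72 h were 15 and 0 with arrays centred on hybridization spike-ins, 7 and 0 on poly-A spike-ins and 5 and 2 on the array median, and those at 6 h were 2 and 6 on hybridization and 2 and 8 on poly-A spike-ins. The list medians were -0.13, -0.12 and 0.21, and on hybridization spike-ins the second turned to 0.18 and the third was 0.71. Between 72 h and 24 h, 9 of the 22 were higher and 3 lower, against 6.85% and 6.07% of all genes.

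Among these genes, 3 stood lower at 24 h and near sham at 72 h, the order of groups seen for Upk3b, and had sham means above the background level. They were chosen for this order after their values were seen. Gpm6a, a membrane glycoprotein, had log2 signals of 7.79, 7.27, 7.71 and 7.41 at 24 h and of 8.78, 8.43, 8.87 and 8.90 at 72 h, against 8.41, 8.32, 8.31 and 8.97 in sham hearts. The 24 h hearts lay below all sham hearts, with a change of -0.96 ± 0.18 (limma adjusted p 0.000525), and the 72 h hearts overlapped sham, with a change of 0.24 (0.375). Over 24 h, the 72 h hearts were higher by 1.20 ± 0.18 (limma adjusted p 0.000155).

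Efemp1, which encodes the matrix protein fibulin 3, averaged 6.82 at 24 h and 8.66 at 72 h, against 8.40 in sham hearts. It fell by 1.58 at 24 h (limma adjusted p 7.322e-05), and at 72 h its change of 0.25 was not called (0.507). Igfbp6, a binding protein of insulin-like growth factors, averaged 6.20 at 24 h and 7.55 at 72 h, against 7.37 in sham hearts, and fell by 1.16 at 24 h (limma adjusted p 0.00184) with a change of 0.18 at 72 h (0.67). The 72 h hearts exceeded the 24 h hearts by 1.83 in Efemp1 and by 1.34 in Igfbp6 (limma adjusted p 4.339e-05 and 0.00124). Efemp1 and Igfbp6 are also made by fibroblasts. Of 10 fibroblast markers, 5 were higher and 2 lower at 24 h, against 13.8% and 12.3% of all genes. The higher ones were Col1a1, Col1a2, Pcolce, Lum and Ddr2, with changes of 1.49, 2.05, 1.14, 0.88 and 0.64. The lower ones were Gsn and Dpep1, with changes of -1.33 and -1.81 at 24 h. At 72 h their changes were -0.17, not called, and 0.70, called.

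**Figure D4:**
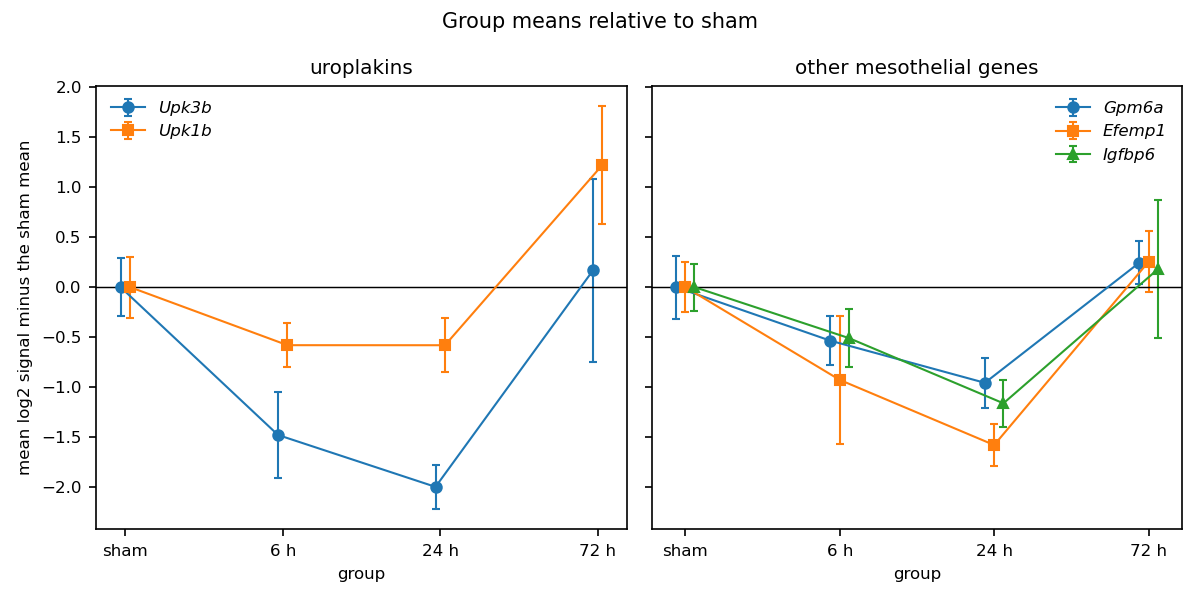
Mean log2 signal minus the sham mean (vertical axes) in each group, with SD of 4 hearts as bars, for Upk3b and Upk1b (left) and for Gpm6a, Efemp1 and Igfbp6 (right). Upk3b, Gpm6a, Efemp1 and Igfbp6 lie lowest at 24 h and close to the sham line at 72 h, and Upk1b lies above it at 72 h.

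The largest rises of the list were in other genes. Pdpn, which encodes podoplanin and is also made by lymphatic endothelium and by stromal cells, rose by 2.21, 4.14 and 2.30 at 6, 24 and 72 h (limma adjusted p 0.000242, 2.384e-07 and 0.00016). Bnc2, a zinc finger factor, averaged 8.04, 7.96 and 8.91 at these times, against 5.87 in sham hearts, which is below the background level, and its changes of 2.17, 2.09 and 3.04 were all called. Itga4, an integrin subunit that leukocytes also carry, rose by 1.22 at 24 h and 1.81 at 72 h.

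Tcf21, a factor of epicardial cells and of resident fibroblasts, averaged 8.17 at 72 h, against 7.001 in sham hearts, a change of 1.17 ± 0.30 (limma adjusted p 0.00893). Sema3d, Anxa8 and Nkain4 were also higher at 72 h, by 0.70, 0.88 and 0.56, the last 2 below the background level in both groups; with median centring Sema3d and Nkain4 were not called (limma adjusted p 0.0601 and 0.0804). These 4 genes are named after their values were seen, to complete the 7 higher calls at 72 h. Gata4 and Podxl were lower at 72 h, by 0.58 and 0.63, and neither was called on hybridization (limma adjusted p 0.784 and 0.558) or poly-A spike-ins (0.284 and 0.12). The lowest Gata4 mean was at 6 h, at 11.63, against 12.92 in sham hearts. The 6 h hearts, from 11.14 to 12.29, did not overlap the sham hearts, from 12.70 to 13.25. At 24 h Gata4 averaged 13.09.

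Epicardial signals and genes of epithelial to mesenchymal transition formed a list of 17 measured genes. Of these, 3 were higher and 3 lower at 6 h, 6 and 3 at 24 h, and 8 and 2 at 72 h. The shares of all genes were 7.92% higher and 12.3% lower at 6 h, 13.8% and 12.3% at 24 h, and 11.5% and 10.3% at 72 h. At 72 h the counts were 12 and 0, with a median of 0.98, on hybridization spike-ins and 8 and 0 on poly-A spike-ins, and at 24 h they were 9 and 2 on hybridization spike-ins. The list medians as deposited were 0.06, 0.17 and 0.48, and the first turned to -0.16 and -0.28 with arrays centred on hybridization or poly-A spike-ins. Thbs1, which encodes thrombospondin 1, averaged 13.66 at 6 h, 9.82 at 24 h and 9.41 at 72 h, against 4.74 in sham hearts, below the background level. Tgfb2, a growth factor that drives epicardial transition in the embryo, rose by 2.08, 2.70 and 1.45 at 6, 24 and 72 h (limma adjusted p 1.699e-06, 1.142e-07 and 0.000106).

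Tgfb3, its relative, rose by 1.98 at 72 h (limma adjusted p 3.157e-05). Fstl1, a secreted glycoprotein, averaged 9.32 at 24 h and 9.66 at 72 h, against 8.03 in sham hearts, and rose by 1.29 and 1.63 (limma adjusted p 0.0365 and 0.0116). Snai2, a repressor of epithelial genes, averaged 8.16 at 6 h and 9.91 at 72 h, against 9.43 in sham hearts, and fell by 1.26 at 6 h (limma adjusted p 0.000296), while its 72 h change was not called. Fgf9, a growth factor secreted by the embryonic epicardium, averaged 7.47, 7.89 and 8.32 at 6, 24 and 72 h, against 8.93 in sham hearts, and was lower at all 3 times by 1.46, 1.04 and 0.61. Tgfbr3, the betaglycan coreceptor, fell by 1.21 at 24 h and 0.69 at 72 h. The 72 h calls of Fgf9 and Tgfbr3 were lost on hybridization (limma adjusted p 0.649 and 0.401) and poly-A spike-ins (0.261 and 0.0817).

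Markers of several other cell types also changed, and their part in the results was not tested. Of all genes, 7.92%, 13.8% and 11.5% were higher and 12.3%, 12.3% and 10.3% lower than in sham hearts at 6, 24 and 72 h. The array means of 10 fibroblast genes ran from 12.81 to 13.26 at 72 h, against 10.82 to 11.01 in sham hearts. At 24 h, 5 of the 10 were higher and 2 lower, and at 72 h 9 were higher, Tcf21 among them. Of 6 genes of activated fibroblasts, 5 were higher at 24 and 72 h, and their array means ran from 13.37 to 14.11 at 72 h, against 8.36 to 8.79 in sham hearts. Of 7 macrophage genes, 6 were higher at 24 h and at 72 h, and of 7 neutrophil genes, 6 were higher at 6 h and at 24 h. All 5 proliferation genes were higher at 72 h, but only 2 of them had a 72 h mean above the background level.

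The 8 lung and airway genes, 6 adipocyte genes and 6 thymus and lymphocyte genes were all below the background level in every group mean, and none was called against sham at any time. All 8 genes of ventricular muscle were above the background level in every group, and 4 of them were lower at 24 h and 3 at 72 h. Of 10 endothelial genes, 3 were lower at each time and 2 were higher at 6 h; of 10 smooth muscle and pericyte genes, 3, 4 and 3 were lower and 0, 2 and 1 higher at 6, 24 and 72 h. The array mean of 9 atrial genes was 10.76 on the 24 h replicate 16, against 8.46 to 8.71 on the other 24 h arrays, and leaving that array out kept every call against sham of the 9 epicardial and mesothelial genes.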

How the data were processed

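RNA of 16 mouse hearts, 4 per group, was measured on 1 array each. The authors deposited 1 log2 value for each of 28846 probe sets and each array. Per the submitters' processing notes, Affymetrix Expression Console made these values; no source used here gives its version or settings, and the log base, unstated, was taken as 2. Array medians of 5.84 to 5.95 show a common scale, so values were used as deposited. The table's transcript cluster identifiers are those of another Affymetrix array than the design text names, and the hours were taken from the sample labels, which differ from the series title. The highest correlation between arrays was 0.9901 and no pair was identical.

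The platform annotation names the probe sets: 19572 had 1 symbol and 0 had several, and the probe set with the highest mean was kept per gene, which left 19505 genes. One model of the 4 groups was fitted with lmFit and eBayes (limma 3.58.1, R 4.3.3) to the 16 arrays with 12 residual and 6.943 prior degrees of freedom, and p-values were adjusted by Benjamini-Hochberg over 19505 genes for 6 comparisons and the F test. The number of arrays limits the precision, with a median SE of 0.183 log2 units. The fit was tested on simulated data. Within a group, the labels tell the hearts apart only by replicate number. The p-values rest on the spread between the arrays within groups.

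All 9 genes are named. Of each list of related genes, up to 4 with the widest called changes against sham and a higher mean above background are named, any behind a count of 5 or fewer may be named, exceptions are stated, and the 2 genes closest in profile are named for genes that changed by 1 or more. The genes and lists were chosen with earlier results of these data known. Listed genes that were not matched were not analysed here. Promoter sequences are RefSeq's. Figures were drawn with matplotlib 3.10.9.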

Additional observations from a re-analysis of the deposited data

Results flagged for a closer look

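In Aldh1a2 at 6 h, replicate 8 stood apart at 8.69, where the other 3 hearts lay between 8.11 and 8.15, a gap of 0.94 of the group's range; 36 groups of 4 hearts were tested this way, and chance flags about 1 in 20. The call against sham did not rest on it, with changes from 1.72 to 1.93 when any 1 array was left out.

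The change against sham differed between times, by limma's test of the difference, in 4 of the 9 genes. Upk3b differed by 2.17 between 72 h and 24 h and by 1.65 between 72 h and 6 h. Upk1b differed by 1.80 in each of these comparisons, and Tbx18 by 0.68 and 0.72. Aldh1a2 differed by 1.84 between 24 h and 6 h and by 1.36 between 72 h and 6 h.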

How the results depend on the processing

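No paired analysis was possible because no 2 groups share a replicate number. Of 1302 recomputed changes of single members, 1256 kept their side of the threshold, 51 of them with a turned sign and no call in either setting; 4 lost the call, 40 gained one, and 2 gained one with a turned sign. Against sham, 2, 3 and 4 of the 9 genes were called at 6, 24 and 72 h. These counts were 4 at 6 h with arrays centred on poly-A spike-ins, 5 at 24 h with arrays centred on the median, and 7 at 72 h with arrays centred on hybridization spike-ins. Of all 19505 genes, 864 were higher and 6087 lower in the first of these. The numbers were 2353 and 3177 in the second, and 7270 and 247 in the third. Between 24 h and 6 h the count of 1 was 5 on hybridization and 2 on poly-A spike-ins. Of all genes, 9811 were higher and 539 lower on the first scale, and 4882 and 831 on the second. Without single arrays the count of 1 ranged from 1 to 2. Without the 6 h replicate 10 Krt18 was added (0.59), and without replicate 11 Wt1 (-0.52). Between 72 h and 24 h the count of 3 was 5 on poly-A spike-ins, where 2624 of all genes were higher and 401 lower. Between 72 h and 6 h the count of 4 was 9 on hybridization and 8 on poly-A spike-ins. Of all genes, 13629 were higher and 479 lower on the first scale, and 9167 and 621 on the second. The F test's 5 was 8 on either scale, for which no all-gene count is given here. Krt19 reversed to 0.50 between 24 h and 6 h, and Wt1 to 0.54 between 72 h and 6 h, both on hybridization spike-ins. Restricting the fit to 8383 genes with a mean above background left Aldh1a2 alone of the 9 genes, with counts of 1 in each comparison except 0 between 72 h and 24 h, and 1 in the F test.

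Over all genes, the median difference from sham shifted with hybridization spike-ins as the scale to -0.26, 0.24 and 0.40 at 6, 24 and 72 h, and with poly-A spike-ins to -0.37, -0.16 and 0.09, where the deposited values gave -0.04, -0.07 and -0.09; array median centring gave -0.01, -0.14 and -0.20. All-gene counts of 3940 at 6 h and 4251 at 72 h became 6951 on poly-A and 7517 on hybridization spike-ins. Those of 5507 between 24 h and 6 h and 5959 between 72 h and 6 h became 10350 and 14108 on hybridization spike-ins, and that between 72 h and 6 h became 9788 on poly-A spike-ins. Of all calls against sham, 39.2% were higher at 6 h as deposited, 19.6% on hybridization and 12.4% on poly-A spike-ins. At 24 h the share was 53% as deposited, 84.4% on hybridization spike-ins and 42.5% with median centring. At 72 h it was 52.9% as deposited, 96.7% on hybridization spike-ins, 82.3% on poly-A spike-ins and 35% with median centring. Between times the shares of 61.2%, 53.1% and 57.2% (24 h over 6 h, 72 h over 24 h, 72 h over 6 h) became 94.8%, 79.9% and 96.6% on hybridization spike-ins, 85.5%, 86.7% and 93.7% on poly-A spike-ins, and 45.4%, 48.4% and 37.7% with median centring. On every one of these scales Upk3b was lower at 6 and 24 h, and Aldh1a2, Upk1b, Tbx18 and Krt18 were higher at 72 h, than in sham hearts. No change of a gene whose groups both lie below the background level can be sized as a fold here.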
